A study of Homo sapiens with 13 samples.

Results

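The antigen receptor loci are 6 stretches of the human genome that hold the gene segments of antibodies and T-cell receptors: IGH (chr14:106032001-107288000), IGK (chr2:89157001-90274000) and IGL (chr22:22380001-23265000) for immunoglobulin heavy, kappa and lambda chains, and TRA/TRD (chr14:22090001-23021000), TRB (chr7:141999001-142511000) and TRG (chr7:38280001-38408000) for the T-cell receptor alpha and delta, beta and gamma chains. All coordinates are hg19. A peak was counted in a locus when its summit, the position of its highest signal, lay in the span. Of 3429979 peaks in 12 lists, 8600 did, 5455 in the 3 immunoglobulin loci and 3145 in the 3 T-cell receptor loci. By locus, IGH held 2356 peaks, IGL 2165, IGK 934, TRA/TRD 2195, TRB 584 and TRG 366.

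The lists come from CUT&RUN, in which a nuclease tethered to an antibody cuts out the DNA around the antibody's target, and the fragments are sequenced. The antibodies were against LEF1 and TCF7L2, and the cells were Nalm6, an established human line of B-cell acute lymphoblastic leukaemia, grown in charcoal-stripped serum. Prednisolone, a synthetic glucocorticoid, was given at 5 µM for 24 h, and the controls are described as untreated in one label and as given vehicle in the protocol. There were thus 4 groups of 3 replicates, described by the submitters as independent experiments of 1 cell line. An IgG sample was not analysed here.

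A developing lymphocyte assembles a receptor gene by V(D)J recombination, which joins one V, sometimes one D, and one J segment ahead of a constant segment, and in doing so removes or inverts the DNA between them. B cells recombine the immunoglobulin loci and T cells the T-cell receptor loci, and leukaemic B-cell precursors are known to carry rearranged T-cell receptor genes at times. LEF1 and TCF7L2 belong to the TCF/LEF family of DNA-binding proteins, which carry the output of canonical Wnt signalling, and LEF1 is well known as a factor of the T-cell receptor alpha enhancer and as a gene active in early B-cell precursors. In RefSeq's table for GRCh38.p14, used only for names and order, the genes run with increasing coordinate from constant (11 genes) through J (9) and D (27) to V (127, of which 79 are pseudogenes) in IGH, and from constant (1) through J (5) to V (76) in IGK. In IGL they run from V (73) to J and constant segments, which are interleaved (7 each), with VPREB1, IGLL5, PRAME, GGTLC2, ZNF280A and ZNF280B among them. VPREB1 encodes a part of the surrogate light chain that B-cell precursors carry before a light chain is made. In TRA/TRD the alpha V segments (54) come first, then the delta segments, then 61 alpha J segments and the alpha constant gene. TRB runs from V (61) to constant (2), and TRG from constant (2) through J (5) to V (14).

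The lists were of unequal length, from 128863 to 395786 peaks, so peak numbers were compared among the 20000 top peaks of each list by −log10 p-value, called top peaks below, and a rank is a peak's place in that order. The read depth of the libraries is unknown. Lists of the 2 antibodies differed in strength: the −log10 q-value of the last top peak was between 5.49 and 6.62 in LEF1 lists and between 0.390 and 0.996 in TCF7L2 lists. Within each antibody the libraries also fell into 2 sets by the length of the shortest peak (164 to 165 against 187 to 197 bp for LEF1, 158 to 167 against 193 to 201 bp for TCF7L2), each set holding both treatments. The lists hold no expression values, so the B-lineage label was not checked against marker genes. Receptor segments form families of similar sequence, and how reads that match several places were treated is not given in the sources used here.

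LEF1 peaks were dense in the loci of both lineages. Across the 6 LEF1 libraries the immunoglobulin loci together held 76, 77 and 75 top peaks in control cells and 80, 78 and 74 after prednisolone, and the T-cell receptor loci 40, 39 and 41 against 36, 46 and 42. Per Mb of reachable length, meaning the 10 kb bins that hold a summit in at least 1 of the 12 lists, that was 27.8 ± 0.783 top peaks in the immunoglobulin and 27.8 ± 2.28 in the T-cell receptor loci (mean ± SD, n = 6), against 7.11 over the genome. The immunoglobulin density was 3.93-fold and the T-cell receptor density 3.95-fold that of the genome, in the same direction in 6 of 6 libraries for each (exact sign-flip permutation test over libraries, two-sided, p = 0.03125 for each, the smallest it can give, and 0.0375 after Benjamini-Hochberg adjustment over 6 tests). No difference between the lineages was detected for LEF1: the log2 ratio of immunoglobulin to T-cell receptor density was -0.0067, it ranged from -0.16 to 0.22 over the 6 libraries, and 3 of 6 lay on either side of 0 (exact permutation p = 1). All p-values measure the spread between these libraries.

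The 6 loci were unlike one another within each lineage. For LEF1 the density relative to the genome was highest in TRG at 8.79 ± 2.51-fold, followed by IGL at 5.56 ± 0.417, TRA/TRD at 4.17 ± 0.553, IGH at 3.87 ± 0.372, IGK at 1.91 ± 0.403 and TRB at 1.89 ± 0.656 (mean ± SD, n = 6). TRG is short, so that its value rests on 5 to 11 top peaks per library, and TRA/TRD and IGH did not differ beyond their spread, nor did IGK and TRB. IGL stood above IGH, and IGH above IGK, in every LEF1 library.

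For TCF7L2 the loci were less dense. The immunoglobulin loci held 34, 37 and 40 top peaks in control cells and 37, 33 and 31 after prednisolone, and the T-cell receptor loci 17, 13 and 18 against 14, 13 and 15. Their densities were 12.8 ± 1.18 and 10.3 ± 1.44 top peaks per Mb (mean ± SD, n = 6), or 1.82-fold and 1.48-fold the genome's (exact permutation p = 0.03125 for each, 0.0375 adjusted). Immunoglobulin density was 1.23-fold that of the T-cell receptor loci, higher in 6 of 6 libraries (exact permutation p = 0.03125, 0.0375 adjusted). In the same exact permutation test that order turned when all deposited peaks were used (log2 ratio -0.29, p = 0.03125) and when a single 100 kb stretch of IGK, described below, was left out (-0.22, p = 0.15625). The immunoglobulin excess over the genome also turned with all peaks (-0.025, exact permutation p = 0.84375) and fell to 0.35 on the log2 scale, with p = 0.125, without that stretch. The T-cell receptor excess kept its direction but lost its call with all peaks (0.26 on the log2 scale, exact permutation p = 0.0625), with the 5000 top peaks (0.54, p = 0.125) and with peaks whose −log10 q-value reached 5 (0.41, p = 0.3125).

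**Figure D1:**
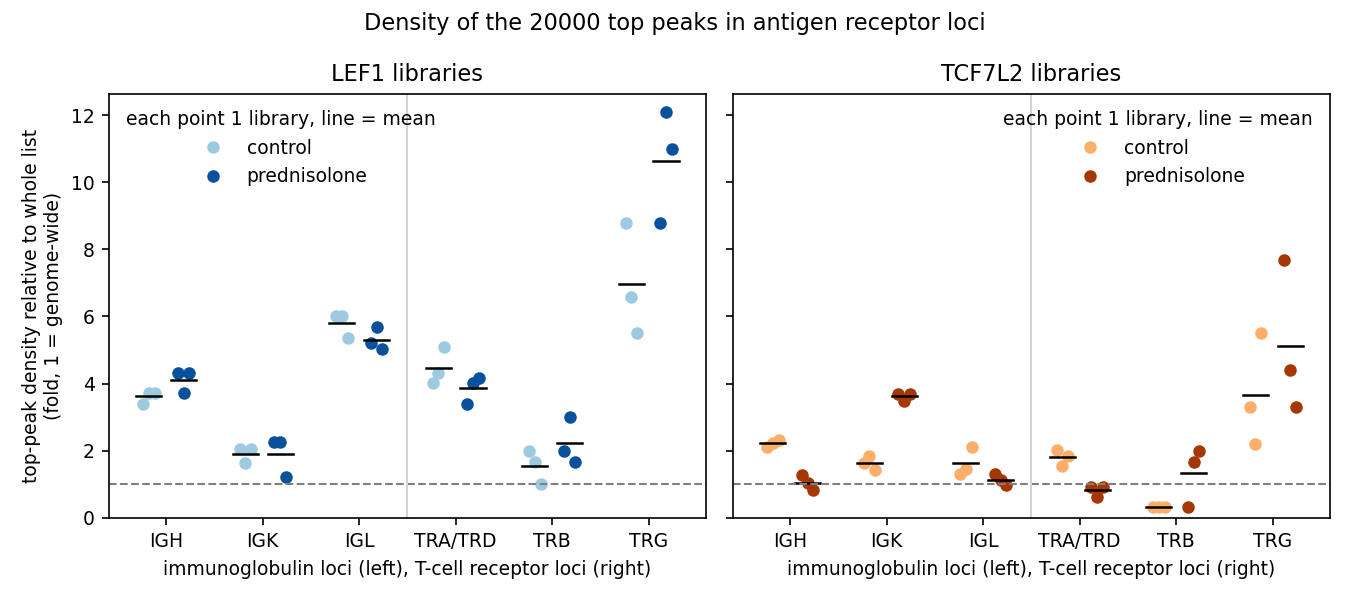
Density of the 20000 top peaks per Mb of reachable length in each locus, as a fold of the same library's genome-wide density (vertical axis), for LEF1 (left panel) and TCF7L2 (right panel), with immunoglobulin loci left and T-cell receptor loci right of the grey line. Each point is 1 library, the short lines are means of 3, and the dashed line marks the genome. LEF1 points lie highest in TRG, and the TCF7L2 points of IGH and TRA/TRD are lower, and those of IGK higher, in the 3 prednisolone libraries.

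Set against LEF1, TCF7L2 had fewer top peaks in both kinds of locus. The difference was -1.11 on the log2 scale in the immunoglobulin loci (0.463-fold) and -1.42 in the T-cell receptor loci (0.375-fold), each with p = 0.005, the smallest of 400 relabellings of the antibody within treatment, and 0.0075 adjusted over 3 tests (exact permutation, two-sided). Pairing by treatment and replicate number sets LEF1 libraries of short shortest peak against TCF7L2 libraries of long shortest peak, and the reverse. In that order the values were -1.21 and -1.02 in the immunoglobulin loci, and -1.48 and -1.35 in the T-cell receptor loci. The antibodies were thus not compared within a set. The size of the difference moved with the limit: in the immunoglobulin loci it was -0.52 among the 5000 top peaks, -3.61 among peaks whose −log10 q-value reached 5 and -2.44 by bases covered, and in the T-cell receptor loci -1.55, -5.17 and -2.93. At that q-value the lists were not of equal length, with 21764 to 27309 LEF1 and 1271 to 3524 TCF7L2 peaks. The ratio of immunoglobulin to T-cell receptor density differed between the antibodies by 0.30 on the log2 scale (exact permutation p = 0.025), but by -0.25 with all peaks (p = 0.005) and by -0.21 without the IGK stretch (p = 0.16).

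Top peaks were not spread evenly along the loci. Each span was cut into 4 equal lengths. In IGH the last 314 kb, the V end, held 17.3 ± 2.07 of the LEF1 top peaks per library, against 1.5 ± 0.837 in the first 314 kb, where the constant genes lie in RefSeq's order (mean ± SD, n = 6). TCF7L2 had 8 ± 4.34 top peaks at the V end and 1.5 ± 1.05 at the constant end. In TRA/TRD the last 233 kb again held most LEF1 top peaks, 14.7 ± 2.07 per library, and 2.33 ± 1.03 lay in the first 233 kb, where alpha V segments begin. In IGL the LEF1 top peaks were most frequent in the length that follows the first 221 kb, at 14.3 ± 1.63. The first 279 kb of IGK held no top peak in any of the 12 libraries.

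Some stretches held no summit at all in any of the 12 full lists. The longest lay in IGK, between summits at 89628965 and 89832207 on chromosome 2, a gap of 203 kb, where the median distance between neighbouring summits was 208 bp in IGK and 328 bp in the genome. Of 3387959 gaps between summits in the genome, 32 were as long. IGK had another of 133 kb (89159792 to 89293002), at the end where its constant and J genes lie, and a further one of 30.4 kb (89409992 to 89440442). TRB had gaps of 52.2 kb (142048063 to 142100275) and 51.2 kb (142275577 to 142326791). In IGH the longest ran over 32.2 kb from 106329196 to 106361400, and in TRA/TRD 30.3 kb from 22917596 to 22947890, where the next longest was 5.24 kb. IGL had 1 of 23.4 kb (23219349 to 23242719) near the end of its span, where the next longest was 7.60 kb, and the longest in TRG was 4.19 kb. As a result 61.5% of IGK and 82.4% of TRB counted as reachable, against 90.9% of the genome. Density was taken per reachable length because the spans hold gaps of the genome assembly, where no peak can be called. Which of these stretches are such gaps was not tested, since no hg19 sequence was used.

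Several LEF1 peaks of the loci ranked among the strongest of their lists. The fold named here is the authors' own enrichment of a peak over the background that MACS2, the peak caller, modelled, and regions are merged top peaks of all 12 libraries. In IGH, the region at chr14:107171973-107180903, at the V end, held the LEF1 peak of rank 41, 38 and 44 in control cells and 75, 84 and 177 after prednisolone. Its folds were 14.4, 13.9 and 14.3 in controls and 14.3, 15.0 and 12.1 after prednisolone, so that the ranks of the 2 treatments did not overlap while the folds did. TCF7L2 had peaks there at rank 1419, 1938 and 2936 in controls and 11679, 4371 and 23806 after prednisolone, again without overlap. At chr14:107250931-107255791, also at the V end, LEF1 ranks ran from 389 to 1240 and TCF7L2 ranks from 4794 to 13232, and this was the only region of the 6 loci with a top peak in all 12 libraries. The remaining leading region of IGH, chr14:106445581-106448939, had LEF1 ranks from 359 to 4459.

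In IGL the region at chr22:22702049-22703655 held LEF1 peaks of rank 53, 78 and 66 in control cells and 94, 16 and 197 after prednisolone. The folds were 17.8, 16.4 and 20.4 against 19.2, 39.3 and 16.7, and the treatments overlapped in both measures. TCF7L2 was far lower there, with rank 6933, 45985 and 60407 in controls, 5458 and 87343 in prednisolone 1 and 3, and no peak in prednisolone 2. The other leading IGL regions, chr22:22784256-22788538 and chr22:22521388-22523376, had LEF1 ranks from 1190 to 3826 and from 377 to 6569.

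Among the T-cell receptor loci the region of best median rank was in TRG, at chr7:38321591-38324705. LEF1 ranked 324, 418 and 166 there in control cells and 416, 213 and 73 after prednisolone, with folds of 14.0, 13.6 and 14.9 against 15.6, 16.6 and 23.4. The folds of all 3 prednisolone libraries lay above those of the controls, while the ranks overlapped. TCF7L2 had peaks of rank 3006, 3080 and 4285 in controls, and after prednisolone a peak of rank 1462 in replicate 3 and none in the others. The next TRG regions, chr7:38356674-38361596 and chr7:38349334-38354087, had LEF1 ranks from 526 to 4820 and from 2044 to 7563.

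TRA/TRD had a row of LEF1 peaks in its last 233 kb that ranked lower than this TRG region, although some reached a similar or higher fold. At chr14:22900258-22903473 LEF1 ranked from 1800 to 3842, with folds from 4.11 to 5.76. At chr14:22878237-22880204 it ranked from 1159 to 5505, with folds of 16.4, 17.1 and 11.8 in controls and from 9.99 to 16.8 after prednisolone. At chr14:22855935-22864496 it ranked from 875 to 3454, with folds from 11.1 to 16.6. In the last of these TCF7L2 had peaks of rank 9120, 38429 and 10536 in the control lists and none in the prednisolone lists. TRB was weakest: its leading region, chr7:142245557-142247596, had LEF1 ranks of 4546, 11273 and 11619 in controls and 5485, 5343 and 3808 after prednisolone. Its other leading regions were chr7:142212540-142214108, with LEF1 ranks from 2440 to 14035, and chr7:142206043-142207257, with ranks from 4604 to 33735.

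**Figure D2:**
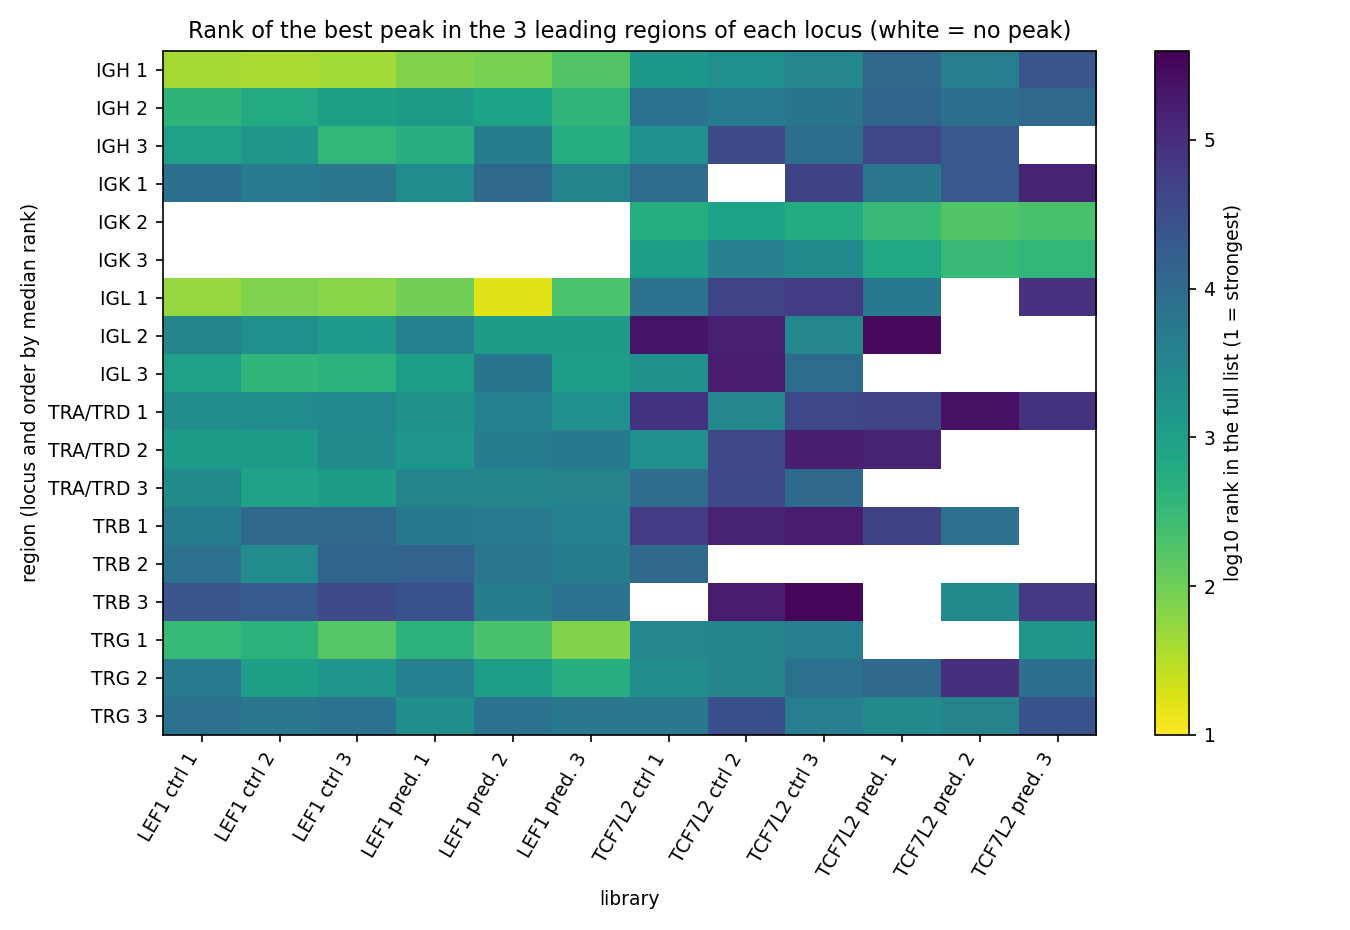
Rank of the best peak (colour, log10 of the rank in the full list, yellow strongest) in the 3 leading regions of each locus (rows) in each of the 12 libraries (columns), white where the list held no peak. LEF1 columns are strongest in the leading regions of IGH, IGL and TRG, whereas the regions called IGK 2 and IGK 3 have peaks in the 6 TCF7L2 libraries alone.

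Of 299 merged regions in the loci, 43 had a LEF1 top peak in all 6 LEF1 libraries (14.4%, against 8.01% of the 94421 regions of the genome), 25 of them in immunoglobulin and 18 in T-cell receptor loci. For TCF7L2 it was 6 regions (2.01%, against 1.91%), and 1 region, the IGH region above, had a top peak in all 12 (0.334%, against 0.713%). A top peak in 1 library alone was seen in 115 regions (38.5%, against 62.9%). Of the 43 LEF1 regions, 12 had no top peak in any TCF7L2 library and the others had one in at least 1. By locus the 12 (4.01%, against 1.56%) were 5 in IGL, 3 in TRA/TRD, 2 in IGK and 1 each in IGH and TRG. The best ranked of these, chosen after its values were seen, was chr14:22551516-22554632 in TRA/TRD, with LEF1 folds of 8.86, 10.2 and 10.1 in controls and 12.5, 10.0 and 11.8 after prednisolone. In IGL, chr22:22805051-22805722 had LEF1 ranks from 2225 to 9601 and no TCF7L2 peak in any of the 6 full lists.

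The converse, TCF7L2 in all 6 of its libraries and no LEF1 top peak, was found in 5 regions (1.67%, against 0.632%), 4 in IGK and 1 in TRA/TRD. The TRA/TRD region, chr14:22984247-22985557, lay towards the end of the span where the alpha J and constant genes are, and is named after its values were seen. TCF7L2 ranked 1139, 731 and 2669 there in controls and 2094, 1869 and 1023 after prednisolone, with folds of 7.24, 10.0 and 6.06 against 6.24, 4.88 and 6.62. The treatments overlapped. LEF1 had a peak in each of its 6 full lists, at ranks from 59317 to 135168 and folds from 2.06 to 3.95.

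The 4 IGK regions lay close together, in the 100 kb that follow the 203 kb gap (chr2:89830001-89930000). No LEF1 library had a top peak in that stretch, and the LEF1 full lists held 1 to 10 peaks there. TCF7L2 had 7, 7 and 6 top peaks in control cells and 13, 14 and 14 after prednisolone, so the groups did not overlap. The rest of IGK held 1, 2 and 1 in controls and 5, 3 and 4 after prednisolone. Equal peaks at the limit were kept by chromosome number, and the rest of IGK was not recounted without them. No share over the genome was computed for stretches of either kind. The strongest, chr2:89874670-89876502, ranked 565, 840 and 592 in controls and 323, 175 and 208 after prednisolone, although its folds were 1.35, 1.32 and 1.40 against 1.60, 1.81 and 1.69. At chr2:89850255-89851272 the ranks were 1044, 3922 and 2568 against 699, 316 and 353. In both, every prednisolone library was ahead of every control library. These peaks combined a high rank with a low fold: the median fold of the top peaks in the stretch was 1.44, 1.40 and 1.51 in controls and 1.73, 1.83 and 1.85 after prednisolone, where the median over all TCF7L2 top peaks was between 3.21 and 3.71. They were also wide, with medians from 730 to 1043.5 bp against 405 to 594 bp for all TCF7L2 top peaks. What gives peaks of this form was not tested.

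**Figure D3:**
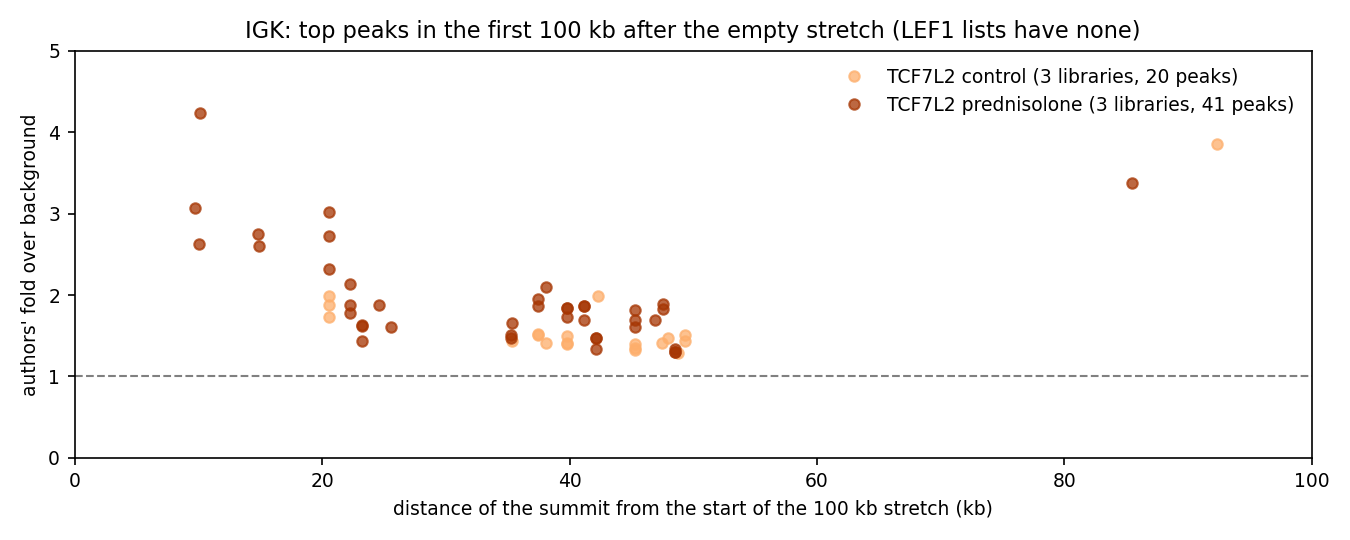
TCF7L2 top peaks in the 100 kb of IGK after its 203 kb gap: distance of the summit from the start of the stretch in kb (horizontal axis), against the authors' fold over background (vertical axis, dashed line at 1), with control peaks in light and prednisolone peaks in dark orange, 3 libraries each. Most of the peaks lie below 2-fold and within 50 kb, and the prednisolone libraries hold 41 of them against 20 in the controls.

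Prednisolone was compared with control to ask whether the glucocorticoid changed the peaks of these Wnt-pathway factors, here in the receptor loci. For the lineages as a whole no difference was detected. The log2 difference in top peaks was 0.024 in the immunoglobulin loci (p = 0.6) and 0.040 in the T-cell receptor loci (p = 0.7) for LEF1, and -0.14 (p = 0.3) and -0.18 (p = 0.4) for TCF7L2, all 0.7 after adjustment over the 4 tests (exact permutation, two-sided, 3 against 3 libraries, smallest possible p = 0.1). Within the sets of short and long shortest peak the values were -0.00049 and 0.074 for LEF1 in immunoglobulin loci, 0.13 and -0.15 for LEF1 in T-cell receptor loci, -0.056 and -0.087 for TCF7L2 in immunoglobulin loci, and -0.12 and -0.28 for TCF7L2 in T-cell receptor loci.

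Single loci did separate for TCF7L2, in opposite directions. IGH held 18, 19 and 20 TCF7L2 top peaks in control cells and 11, 9 and 7 after prednisolone. IGK held 8, 9 and 7 against 18, 17 and 18, of which 7, 7 and 6 against 13, 14 and 14 lay in the 100 kb stretch of low fold described above. TRA/TRD held 13, 10 and 12 against 6, 4 and 6. In these 3 loci the groups did not overlap, with log2 differences of -1.06, 1.10 and -1.07 and an exact permutation p of 0.1 for each, which this design cannot go below. The TCF7L2 lists themselves also differed in strength by treatment. The −log10 q-value of their last top peak was 0.996, 0.677 and 0.971 in controls and 0.612, 0.614 and 0.390 after prednisolone, without overlap. Whether this moved the counts of single loci was not tested. Peaks equal in p-value and fold at the limit were kept by chromosome number, chromosome 2 before 14 and 22. With the equal peaks left out, which leaves lists of unequal length, the groups stayed apart. The means were then 19 against 9 in IGH, 7.67 against 16.3 in IGK and 11.7 against 5.33 in TRA/TRD. Over the genome, 5.87% of 2881 windows of 1 Mb had all 3 prednisolone libraries below all controls in TCF7L2 top peaks, and 7.53% had them above. Among the top peaks the groups overlapped in IGL, at 8, 9 and 13 against 8, 7 and 6. They also overlapped in TRB (1, 1 and 1 against 1, 5 and 6) and TRG (3, 2 and 5 against 7, 4 and 3). For TRB the means were 1 and 4, and 1 and 2.67 with the equal peaks at the limit left out.

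The IGH and IGK differences kept their direction within the sets by shortest peak, at -0.80 and -1.13 for IGH and 1.13 and 1.08 for IGK, and TRA/TRD stood at -0.82 and -1.32. The groups also stayed apart for IGH and IGK among the 5000 top peaks, among peaks whose −log10 q-value reached 5 and in the full lists. For TRA/TRD they stayed apart in the full lists but overlapped among the 5000 top peaks (2, 4 and 1 against 1, 1 and 1) and at that q-value (2, 1 and 1 against 1, 0 and 1). At the same q-value IGK held 5, 2 and 4 TCF7L2 peaks in controls and 8, 10 and 11 after prednisolone, and IGH 2, 2 and 1 against none in any prednisolone library. At that limit the lists were of unequal length. They held 2401, 2450 and 3524 TCF7L2 peaks in controls and 2249, 1364 and 1271 after prednisolone. Shares of windows over the genome were not computed at these other limits. In the full lists, IGH held 48.6 of every 100000 TCF7L2 peaks in controls and 29.2 after prednisolone, and IGK 20.6 and 25.5. IGL, which overlapped among the top peaks, separated in the full lists, at 41.7 and 29.6 (exact permutation p = 0.1). TRB and TRG overlapped there.

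For LEF1 the groups overlapped in all 6 loci among the 20000 top peaks. IGH held 29, 32 and 32 LEF1 top peaks in controls and 37, 32 and 37 after prednisolone, IGK 10, 8 and 10 against 11, 11 and 6, and IGL 37, 37 and 33 against 32, 35 and 31. TRA/TRD held 26, 28 and 33 against 22, 26 and 27, TRB 6, 5 and 3 against 6, 9 and 5, and TRG 8, 6 and 5 against 8, 11 and 10. Over the genome, 7.69% of 2641 windows had all 3 prednisolone libraries above the controls in LEF1 top peaks, and 6.29% below. Other limits separated some loci. Among the 5000 top peaks TRA/TRD held 9, 9 and 8 LEF1 peaks in controls and 5, 5 and 5 after prednisolone, and TRG 2, 2 and 2 against 3, 3 and 5. Among peaks whose −log10 q-value reached 5, IGL held 51, 46 and 44 against 38, 43 and 35, and TRG 8, 9 and 8 against 10, 12 and 10 (exact permutation p = 0.1 for each of the 4). The whole LEF1 lists at that q-value held 27309, 25467 and 27301 peaks in controls and 26734, 25594 and 21764 after prednisolone. The share of windows over the genome that separate was not computed at these limits.

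At the level of single regions, a region with a top peak in every prednisolone library and in none of the controls counted as gained, and the reverse pattern as lost. For LEF1, 9 of 216 regions in the loci were gained (4.17%, against 2.82% of all LEF1 regions) and 5 lost (2.31%, against 1.92%). The gained regions were 4 in IGH, 2 in TRG and 1 each in IGK, IGL and TRB, and the lost ones 3 in IGL and 1 each in IGH and TRA/TRD. In all 14 the 3 full lists of the other treatment also held a peak, so that these were shifts in rank across the limit of the top peaks. The clearest gain was in IGK at chr2:90007024-90008450, with folds of 5.14, 4.72 and 5.50 in controls and 10.7, 13.7 and 10.2 after prednisolone. In TRG, chr7:38383663-38385367 had 2.97, 2.27 and 3.36 against 6.91, 7.20 and 6.64, and chr7:38397078-38399271 had 3.69 to 4.70 against 5.97 to 8.85.

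Gained LEF1 regions of lower rank were chr14:106810964-106813298 in IGH (folds from 3.51 to 4.72 in controls and 5.37 to 9.09 after prednisolone) and chr22:22728468-22731115 in IGL (1.95 to 2.58 and 3.20 to 3.85). The lost LEF1 region of best rank was chr14:107205959-107207263 at the V end of IGH, with folds of 10.3, 8.07 and 6.21 in controls and 5.54, 4.40 and 5.30 after prednisolone. In TRA/TRD, chr14:22957110-22960988 went from 6.67, 6.44 and 6.53 to 5.29, 3.80 and 3.95. The lost IGL regions were chr22:22939886-22942372, chr22:22964378-22965445 and chr22:22686805-22690037, with control folds from 4.39 to 6.26. Over all LEF1 regions of the loci, 12 ranked better in every prednisolone library than in any control (5.56%, against 7.77%) and 22 ranked worse (10.2%, against 7.67%).

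For TCF7L2, 4 of 182 regions were gained (2.20%, against 0.36% of all TCF7L2 regions), all 4 in the IGK stretch after the gap. At chr2:89852970-89853586 the ranks were 1684, 482 and 455 after prednisolone, with folds of 1.44, 1.63 and 1.62, and no control list held a peak. At chr2:89851829-89852483 the folds were 1.38, 1.45 and 1.39 in controls and 1.87, 1.78 and 2.13 after prednisolone. The others were chr2:89871141-89871442 and chr2:89839648-89840423. The 2 lost regions (1.10%, against 1.24%) were chr14:22891029-22891812 in TRA/TRD, with control folds of 3.34, 3.43 and 4.69 and no peak in any prednisolone list, and chr22:22895116-22895873 in IGL. Of 11 regions that ranked better in every prednisolone library (6.04%, against 0.998%), 10 were in IGK, and 5 regions ranked worse (2.75%, against 2.24%). The T-cell receptor loci had no gained TCF7L2 region among 61 and no better ranked one.

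The median width of LEF1 top peaks overlapped between the lineages. Per library it was 1140 to 1478.5 bp in immunoglobulin and 1140.5 to 1725 bp in T-cell receptor loci, against 1138 to 1409 bp in the genome, and the median fold 5.77 to 6.44, 6.47 to 6.73 and 6.14 to 6.63. In every LEF1 library the median fold of the T-cell receptor loci was therefore above that of the immunoglobulin loci. Among TCF7L2 top peaks the median width was 408 to 559 bp in immunoglobulin and 383 to 603 bp in T-cell receptor loci. The median TCF7L2 fold in IGK was 1.42 to 1.99, below the 3.30 to 3.59 of IGH and the 3.33 to 3.75 of TRA/TRD.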

How the data were processed

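The authors called peaks for each library with MACS2 on hg19, per the submitters' processing notes, and deposited for each peak an interval, a summit offset, a fold ratio over background, and a p-value and q-value, each as −log10. Versions, the aligner and the control library are not given in the sources used here. From the lists, top peaks were taken (20000 per list, equal values in order of fold, chromosome and position), counted by summit, and compared as log2(count + 0.5), with Python 3.11.15 and pandas 2.3.3. Overlapping top peaks (at least 1 bp) were merged into regions, per antibody for gained and lost calls. In TCF7L2 control 2 and prednisolone 1 and 3, equal peaks filled 1659, 2231 and 7599 places at the limit. The scripts were tested on simulated data. Named are the 3 regions per locus of best median rank and up to 5 gained or lost per antibody and direction. The loci, lists and tests were chosen with earlier results of these data known. No hg19 sequence or annotation was used here, so no region is placed in an exon, intron or UTR.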

Additional observations from a re-analysis of the deposited data

Results flagged for a closer look

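In IGH the difference between prednisolone and control, among the 20000 top peaks, differed between the 2 antibodies. It was 0.18 on the log2 scale for LEF1 and -1.06 for TCF7L2, a difference between the antibodies of -1.24. The test of that difference, permuting the treatment labels within each antibody (400 relabellings, exact, two-sided), gave p = 0.015, which became 0.12 after Benjamini-Hochberg adjustment over 8 such tests, so it does not pass the correction. The LEF1 groups overlapped, and the LEF1 value was -0.37 among the 5000 top peaks, beside -0.85 for TCF7L2, and 0.0084 by q-value and 0.030 in full lists. IGK differed by 1.14 (exact permutation p = 0.05, 0.2 adjusted) and TRA/TRD by -0.86 (p = 0.095, 0.253 adjusted). Groups held 3 libraries, too few for a search for single deviating libraries.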

How the results depend on the processing

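LEF1 densities of both lineages over the genome, and the lower TCF7L2 numbers against LEF1 in both, kept their direction and call under every alternative that kept all libraries. With full lists the immunoglobulin to T-cell receptor ratio for TCF7L2 was -0.29, immunoglobulin over genome -0.025, T-cell receptor over genome 0.26, and the antibody difference of the ratio -0.25. Without the IGK stretch, an alternative chosen after seeing the data, these were -0.22 for the ratio, 0.35 for immunoglobulin over genome and -0.21 for the antibody difference. With the 5000 top peaks the TCF7L2 ratio was 0.78 (exact permutation p = 0.09375) and T-cell receptor over genome 0.54; with nominal span lengths the ratio was 0.16 and with −log10 q-values from 5 up T-cell receptor over genome was 0.41. The T-cell receptor excess lost its call under full lists, 5000 top peaks and the q-value limit, as did the TCF7L2 ratio with 5000 top peaks and nominal lengths. Leaving out equal peaks at the limit, also added later, gave a LEF1 ratio of 0.0038.

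Small treatment differences changed sign: LEF1 in immunoglobulin loci was -0.0069 with full lists, -0.15 with 5000 top peaks, -0.13 by q-value and -0.0083 by bases covered. LEF1 in T-cell receptor loci was -0.029, -0.28, -0.076 and -0.084 under the same 4. TCF7L2 in immunoglobulin loci was 0.62 with 5000 top peaks (exact permutation p = 0.1), 0.68 by q-value (p = 0.2) and 0.027 by bases. The cause of these sign changes was not tested. Lists at the q-value limit were of unequal length.

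Leaving out each library in turn, where 5 libraries cannot give p below 0.0625, the immunoglobulin to T-cell receptor ratio ranged from -0.053 to 0.024 for LEF1 and from 0.25 to 0.35 for TCF7L2. Immunoglobulin over genome ranged from 1.96 to 1.99 and 0.83 to 0.90, and T-cell receptor over genome from 1.95 to 2.02 and 0.51 to 0.60. Treatment differences ranged from -0.00041 to 0.055 and -0.040 to 0.13 for LEF1, and from -0.20 to -0.078 and -0.31 to -0.086 for TCF7L2, immunoglobulin first.

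Gained LEF1 regions numbered 3 with full lists, 0 with 5000 top peaks, 0 when absence was asked of the full list, and 9 to 19 without one library, against 9. Lost LEF1 regions numbered 12, 1, 0 and 6 to 10, against 5. Gained TCF7L2 regions numbered 1 under strict absence and 4 to 7 without one library, against 4. Lost ones numbered 23, 0, 1 and 3 to 6, against 2. These calls carry no test.

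Pairing by replicate number was not seen: the correlations of deviations ran from -0.056 to -0.00051 over 12 pairs. In each of these pairs the libraries lay in opposite sets by shortest peak, so the correlations cannot exclude pairing. With the replicate block TCF7L2 against LEF1 was -1.11 in immunoglobulin and -1.42 in T-cell receptor loci and 0.30 for the ratio, as without it (exact permutation p = 0.03125 each). The treatment differences were 0.024 and 0.040 for LEF1 (p = 0.75 each, exact permutation) and -0.14 and -0.18 for TCF7L2 (p = 0.5 each), with 0.25 the smallest possible of 3 pairs, and no call changed.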
